A study of Dunaliella salina with 6 samples.

Results

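MCA1 (DsB_g11707) is a nuclear gene of the halotolerant, wall-less green alga *Dunaliella salina*, and its transcript was 166-fold more abundant in cultures without added iron than in cultures with it. The gene was taken by its symbol from the deposited annotation of strain Bardawil (UTEX LB 2538), as 1 gene of the 25081 in the deposited expression table. It was chosen by its own FPKM values in the libraries described here, so its iron response is given as a description and was not tested. The groups were 3 cultures in medium with 0 µM added iron and 3 in medium with 1.5 µM added iron. All 6 were wild-type vegetative cells kept for 3 days in 1 M NaCl at 24 °C, shaken at 140 rpm and lit without a dark phase at 50 µE. From each flask 1 poly(A) RNA library was sequenced with 50 nt single-end reads. Expression is given as FPKM (fragments per kb of transcript and per 1000000 mapped reads), which is corrected for transcript length and can be compared between genes.

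In the related alga *Chlamydomonas reinhardtii*, MCA1 is a pentatricopeptide repeat (PPR) protein that is made in the cytosol and imported into the chloroplast. It binds the start of the petA transcript, protects it from degradation and, together with the translation activator TCA1, sets how much cytochrome f is made. Cytochrome f is a haem-carrying subunit of the cytochrome b6f complex, which passes electrons from photosystem II towards photosystem I and contains haem and iron-sulfur iron. PPR proteins and the related octotricopeptide repeat (OPR) proteins are families of nuclear-encoded factors, each usually acting on 1 or a few organelle transcripts. These roles are background from other species, and binding, protein and petA stability were not measured here.

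In the authors' annotation MCA1 was placed on chromosome 6 between 12820264 and 12828498, minus strand. It had 1 transcript with 16 exons that summed to 3768 nt, of which 3132 nt were coding, enough for a protein of 1043 residues. The annotated 5′ UTR was 3 nt long and the 3′ UTR 633 nt. The transcript carried 4 Pfam accessions, PF01535, PF13041, PF13812 and PF17177, all of them PPR domains. The exon sum lay within the range of 1061 to 6312 nt seen for the other 9 genes with PPR domains. The whole gene spanned 8235 nt, against a range of 3551 to 43446 nt and a median of 26583 nt for the other 9. Its longest intron was 553 nt.

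Without added iron, MCA1 had an FPKM of 369, 362 and 238 in replicates 1, 2 and 3. With added iron it had 2.01, 1.61 and 2.20 in replicates 1, 2 and 3. The groups lay far apart, and the lowest library without added iron was above every library with added iron. The means were 323 ± 73.6 FPKM without added iron and 1.94 ± 0.300 FPKM with it (SD, n = 3 each), a ratio of means of 166. As log2(FPKM + 1), a scale on which low genes change less than their ratio, the difference was 6.76 (SE 0.176). FPKM is a relative measure of the RNA of a whole flask, so more transcript per cell and more cells that hold the transcript cannot be told apart. The sources used here do not say how the values were scaled between libraries.

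Read totals had to be estimated, from the steps by which low FPKM values differ. These implied 18420000 to 20940000 reads in the libraries without added iron and 19060000 to 24780000 in those with it. On that scale the FPKM of MCA1 corresponded to about 24200, 25000 and 17800 reads without added iron and to about 153, 110 and 195 reads with it. The low level with added iron therefore rested on an estimated 110 to 195 reads per library. The implied reads are estimates, since only 32.7% to 45.1% of the values under 10 reads came out within 0.05 of a whole read. Summed FPKM was 472982 to 537245 without added iron and 538457 to 610113 with it.

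MCA1 moved across most of the range of expressed genes. Tests covered the 13909 genes whose FPKM averaged 1 or more across the libraries. Among these MCA1 stood at place 218, 205 and 263 from the top in replicates 1, 2 and 3 without added iron. With added iron it stood at place 12907, 13159 and 12656. By the log2 difference it was in place 11 of all tested genes.

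**Figure D1:**
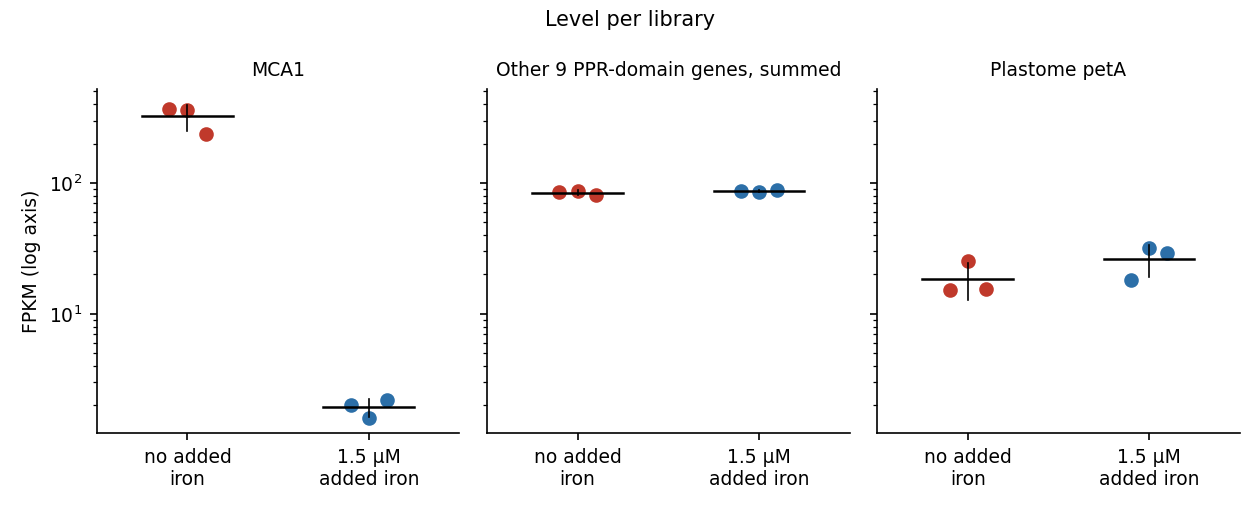
FPKM on a log axis in each library for MCA1, for the sum of the other 9 PPR-domain genes and for plastome petA; points are libraries, horizontal bars group means and vertical bars the SD (n = 3). MCA1 had 238 to 369 FPKM without added iron and 1.61 to 2.20 with it, while the groups overlapped for both other measures.

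Within the group without added iron, replicate 3 was the low library for MCA1, at 0.652 of the mean of replicates 1 and 2. The same library was the lowest of its group for 39 of the 44 other called genes that were at least 4-fold higher without added iron, where the median of this ratio was 0.668. Over these 44 genes the ratio ranged between 0.0822 and 1.79, and 20 had a lower ratio than MCA1. The log2 difference of MCA1 without that library was 6.97. The low value of replicate 3 was thus shared with most other strongly raised genes. The share of all tested genes that were lowest in that library was not counted. It is therefore not known whether this was particular to raised genes. That library also had the lowest summed FPKM of its group, 472982 against 537245 and 494886 in replicates 1 and 2. The cause was not tested.

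None of the other PPR genes was called. A PPR domain was annotated in 10 genes in all. Of the other 9, 0 passed an adjusted p of 0.05, against 9.39% of all genes tested. The test was limma with Benjamini-Hochberg adjustment over all genes tested. A list of 9 genes is too small for this count to set them apart from other genes. At an unadjusted p under 0.05 there were 2 of the 9, MRL1 and PPR8, beside 3473 of all 13909 genes tested. The log2 differences of the 9 genes ran from -0.29 to 0.27, with a median of -0.01, beside a median of 0.00 for all genes tested. Rescaling columns to a sum of 1000000 moved the median of all genes by 0.17. The share of higher calls among all calls was then 85.3%, against 44.6% on the deposited scale. With these columns 1 of the 9 was called, beside 3736 of all 13909 genes tested. It was PPR8 at 0.46 (limma adjusted p = 0.0286). MRL1 (DsB_g22721), which in *Chlamydomonas* protects the rbcL transcript of the large Rubisco subunit, had 11.5, 11.3 and 14.0 FPKM without added iron and 15.5, 14.0 and 15.9 FPKM with it, with a log2 difference of -0.29 (SE 0.103, limma adjusted p = 0.125). TCB1 (DsB_g19020), known from *Chlamydomonas* as a factor for translation of petB, the cytochrome b6 transcript, had 5.39, 4.60 and 5.54 FPKM without added iron and 5.25, 4.81 and 5.59 FPKM with it. The 2 groups overlapped for TCB1 (log2 difference -0.01, SE 0.0957, limma adjusted p = 0.966).

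PPR6 and PPR3 carry the same 4 Pfam accessions as MCA1 and PF12854 besides. PPR6 (DsB_g00370) had 15.2, 16.5 and 15.8 FPKM without added iron and 16.7, 16.7 and 15.6 FPKM with it. PPR3 (DsB_g10238) had 9.80, 10.6 and 9.80 FPKM without added iron and 9.65, 9.91 and 10.3 FPKM with it. Their adjusted p by limma were 0.790 and 0.946. PPR7 (DsB_g00384), a short model of 4 exons, had 16.5, 17.0 and 9.50 FPKM without added iron and 10.05, 12.5 and 11.9 FPKM with it. Its log2 difference was 0.26 (limma adjusted p = 0.471), and without replicate 3 of no added iron it was 0.52 with an adjusted p of 0.0234. Without that library MRL1 also passed, at -0.38 (limma adjusted p = 0.0348). Of the 9 genes 2 were then called, beside 1784 of all 13909 genes tested.

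MCA1 took opposite ends of the PPR genes by level. In cultures without added iron, MCA1 was above the highest other PPR gene in every library, where the other 9 had between 2.94 and 17.0 FPKM. In cultures with added iron it was below the lowest other PPR gene in every library, where the other 9 had between 2.16 and 16.7 FPKM. MCA1 held 81.1%, 80.6% and 74.7% of the summed FPKM of the 10 PPR genes in replicates 1, 2 and 3 without added iron. In the added-iron replicates it held 2.27%, 1.87% and 2.42%. The other 9 summed to 84.5 ± 3.39 FPKM without added iron and 86.7 ± 1.98 FPKM with it (SD, n = 3 each), and these sums overlapped between groups.

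**Figure D2:**
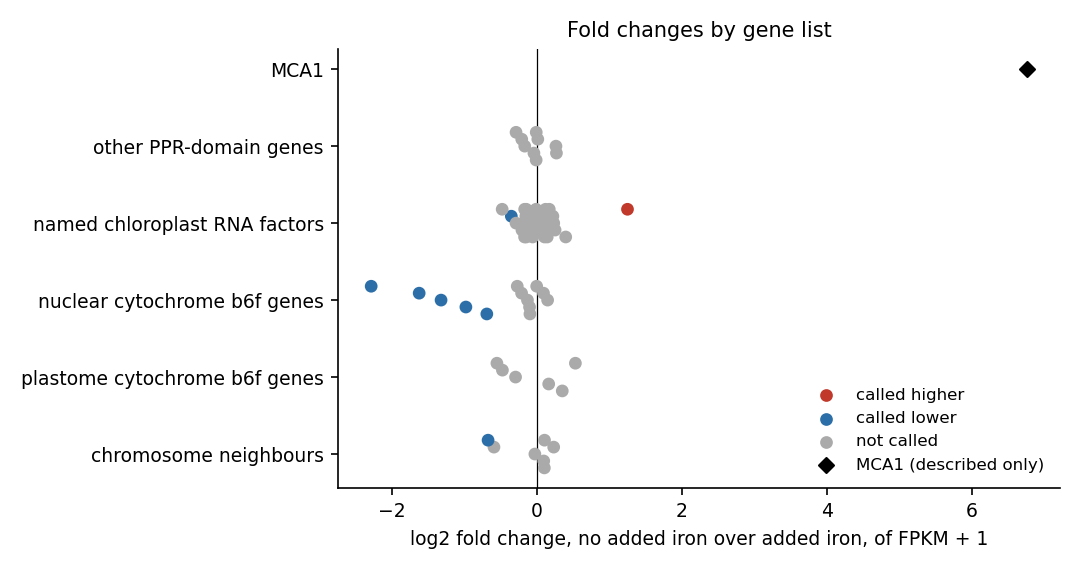
Log2 fold change (no added iron over added iron, of FPKM + 1) of MCA1 and of each tested gene in 5 lists; each point is a gene, coloured by whether limma called it higher or lower at an adjusted p under 0.05. MCA1 stands at 6.76, the other 9 PPR genes lie between -0.29 and 0.27, and 5 nuclear genes of the cytochrome b6f list lie at -0.69 or below.

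Nuclear factors for other chloroplast transcripts were read from a list of symbols known from *Chlamydomonas*. It matched 31 genes besides MCA1, all of them tested, and no model used here carried the symbol TCA1. Without added iron 1 of the 31 was higher and 1 lower by limma, where 4.19% and 5.20% of all genes tested were higher and lower. The median log2 difference of the list was -0.01. With rescaled columns the split was 7 higher and 1 lower, beside 3185 higher and 551 lower of all 13909 genes tested at that setting. Without replicate 3 of no added iron the split was 2 higher and 2 lower, with MDH4 and MRL1 added. Of all 13909 genes tested, 931 were then higher and 853 lower. Without any other single library the split of the list was 1 higher and 0 lower. At those settings 586 to 792 of all 13909 genes tested were called, against 1306 with all libraries. The symbols also matched 5 genes with malate dehydrogenase domains (MDH1 to MDH5) and the tryptophan synthase gene MAA7, which are enzymes. Leaving those 6 out was decided after the annotation had been seen. With all libraries on the deposited scale, 1 of the remaining 25 genes was then higher and 1 lower. The other settings were not recounted without the enzymes. The 7 higher calls with rescaled columns included MDH1, MDH3, MDH4 and MDH5.

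RB60 (DsB_g22972, chromosome 14) was the factor that rose. It is a protein disulfide isomerase that takes part in psbA translation in *Chlamydomonas* and is also found in the endoplasmic reticulum. It had 148, 156 and 112 FPKM without added iron and 50.8, 56.9 and 64.7 FPKM with it, with no overlap (log2 difference 1.25, SE 0.151, limma adjusted p = 0.00222). RAA12 (DsB_g12938), named as a factor of psaA trans-splicing, fell to 9.39, 8.42 and 9.03 FPKM without added iron, against 11.7, 11.5 and 11.9 FPKM with it (log2 difference -0.35, limma adjusted p = 0.0250). That call was lost when any library but replicate 3 of no added iron was left out, with limma adjusted p between 0.05 and 0.116, and with rescaled columns (-0.20, limma adjusted p = 0.101).

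The remaining named factors did not pass the threshold. NAC2, which stabilises the psbD transcript in *Chlamydomonas*, had 13.2, 11.8 and 13.1 FPKM without added iron and 13.2, 12.6 and 12.6 FPKM with it. MBB1, a factor for psbB, averaged 8.13 ± 0.551 FPKM without added iron and 9.15 ± 0.237 FPKM with it (SD, n = 3 each). MCD1, the factor for the cytochrome b6f transcript petD, averaged 3.76 ± 0.0776 FPKM without added iron and 3.43 ± 0.0570 FPKM with it (SD, n = 3 each; log2 difference 0.10, limma adjusted p = 0.493). TAA1 and TAB2, translation factors for the photosystem I subunits PsaA and PsaB, had log2 differences of -0.14 and 0.01. CSP41B, an RNA-binding protein of the chloroplast, had the lowest value of the list at -0.48 (limma adjusted p = 0.0852), and it was called under all 3 other scalings run. These gave -0.48 with median-of-ratios factors, -0.40 with quantile normalization and -0.30 with rescaled columns (limma adjusted p = 0.0296, 0.0182 and 0.0471).

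OPR genes were read by symbol after the annotation had been seen. Of 26 tested, 1 was higher and 4 were lower without added iron by limma, where 4.19% of all genes tested were higher and 5.20% lower. Their log2 differences ran from -0.71 to 0.76. The higher one, OPR27 (DsB_g14919), had 79.0, 73.4 and 57.4 FPKM without added iron and 40.2, 37.7 and 44.2 FPKM with it. Its log2 difference was 0.76 (SE 0.134, limma adjusted p = 0.0125). The call was lost without replicate 2 of no added iron (limma adjusted p = 0.0558) and without replicate 2 of added iron (limma adjusted p = 0.0539). The lower ones were OPR16 at -0.71, OPR49 at -0.53, OPR19 at -0.47 and OPR9 at -0.35. The calls of OPR19 and OPR9 were lost without any single library but replicate 3 of no added iron, and that of OPR16 without replicate 3 of added iron (limma adjusted p = 0.0538). With no filter on low values OPR16, OPR19 and OPR9 were not called (limma adjusted p = 0.0524, 0.0808 and 0.0700). With rescaled columns OPR19 was at -0.31 and OPR9 at -0.20, and neither was called (limma adjusted p = 0.0985 and 0.223).

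Plastome petA (DsB_g27027), the transcript that MCA1 acts on in *Chlamydomonas*, is given as context, since plastid transcripts mostly lack poly(A) tails and the libraries were selected for such tails. It had 15.1, 25.2 and 15.5 FPKM without added iron and 18.1, 31.7 and 29.0 FPKM with it. The groups overlapped, with a log2 difference of -0.48 (SE 0.247, limma adjusted p = 0.279). MCA1 was 238 to 369 FPKM where petA was 15.1 to 25.2, and 1.61 to 2.20 FPKM where petA was 18.1 to 31.7. None of the plastome genes petA, petB, petD, petG, petL and ccsA passed the threshold by limma, beside 9.39% of all genes tested. An unadjusted p under 0.05 was found for 1 of the 6, beside 3473 of all 13909 genes tested. That gene was petD (subunit IV), with 1146, 1566 and 1855 FPKM without added iron and 1936, 2434 and 2231 FPKM with it. The groups did not overlap (log2 difference -0.55, limma adjusted p = 0.0950). Without replicate 3 of no added iron petD passed, at -0.71 (limma adjusted p = 0.0374). For petG 1 library with added iron was listed at 0 while another had 189 FPKM, so its values varied widely between replicates.

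Of the nuclear genes for the same complex, those for 4 subunits and for plastocyanin fell without added iron. The list of cytochrome b6f subunits, carriers and assembly factors matched 18 genes, of which 13 were tested. By limma 5 were lower and 0 higher. An unadjusted p under 0.05 was found for 6 of the 13, beside 3473 of all 13909 genes tested. Lower calls made up 5.20% of all genes tested, and the median log2 difference of the list was -0.21. PETO1 (DsB_g00502), a loosely bound subunit, had 107, 98.2 and 105 FPKM without added iron and 487, 467 and 581 FPKM with it (log2 difference -2.29, SE 0.111, limma adjusted p = 1.46e-05). PETN1 (DsB_g11678), a small subunit, fell to 125 ± 15.5 FPKM without added iron, against 387 ± 31.1 FPKM with it (SD, n = 3 each; log2 difference -1.62, limma adjusted p = 2.15e-04). PETC1 (DsB_g04832), the Rieske iron-sulfur subunit, had 483, 390 and 505 FPKM without added iron and 1170, 1055 and 1212 FPKM with it (log2 difference -1.32, limma adjusted p = 6.62e-04). PETM1, another small subunit, fell by 0.98 on the log2 scale, and PCY1, the copper carrier plastocyanin, by 0.69, with limma adjusted p of 0.00274 and 0.00453. The call of PCY1 was lost with no filter on low values (limma adjusted p = 0.0629) and with quantile normalization (limma adjusted p = 0.0844). In all 5 the groups did not overlap, but they were picked by the test on these same libraries. The share of all genes tested whose groups did not overlap was not counted.

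Assembly factors of the complex did not pass the threshold, which 9.39% of all genes tested did. They are too few for this to set them apart from other genes. CCB1 to CCB4 attach a haem of cytochrome b6, and CCS1 and CCS5 serve haem attachment to c-type cytochromes such as cytochrome f. Their log2 differences ran from -0.27 for CCB4 to 0.09 for CCB2, with limma adjusted p of 0.149 for CCB4 and above that for the other 5. CCS1, whose protein serves the petA product directly, had 11.1, 9.63 and 8.98 FPKM without added iron and 10.6, 10.01 and 11.4 FPKM with it. Of 8 genes with a PETC symbol, PETC3, PETC4, PETC5, PETC7 and PETC8 had mean FPKM under 1 and were not tested. The groups overlapped for PETC3, PETC4 and PETC5 and did not for PETC7 and PETC8. PETC8 had 0.186, 0.278 and 0.107 FPKM without added iron and 1.37, 1.05 and 2.18 FPKM with it. PETC4 and PETC5 had nearly the same values in each library, and the sources used here do not say how reads common to such copies were assigned.

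Set beside the subunit genes, MCA1 changed its place. Without added iron its 238 to 369 FPKM lay above the 98.2 to 107 FPKM of PETO1 and the 107 to 135 FPKM of PETN1 in every library, and below the 390 to 505 FPKM of PETC1. With added iron its 1.61 to 2.20 FPKM lay below all 13 tested genes of the list in every library, the lowest of which was PETC6 at 7.85 to 9.97 FPKM.

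**Figure D3:**
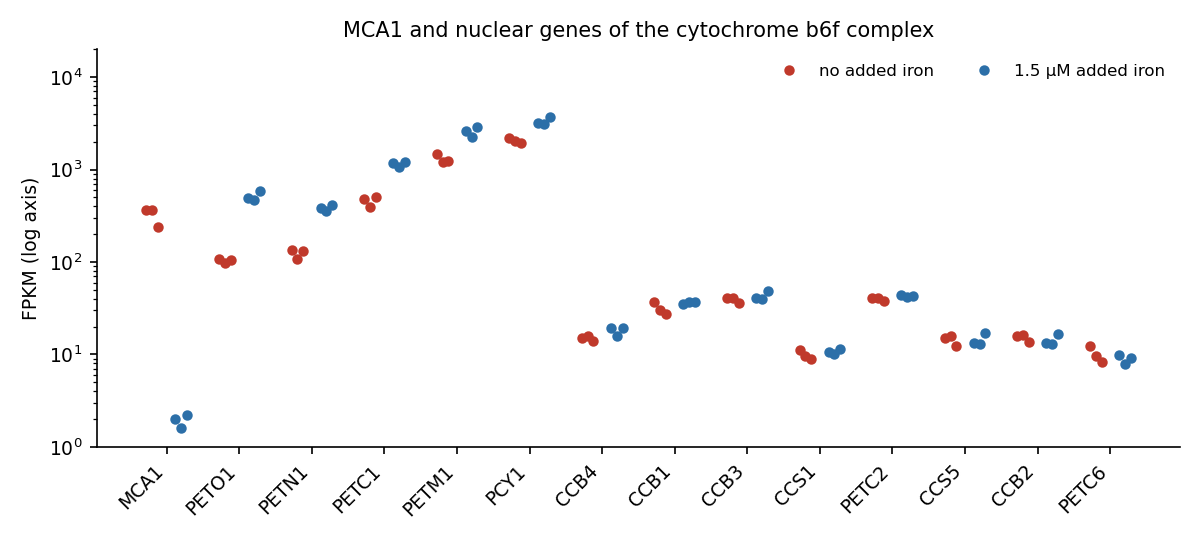
FPKM on a log axis of MCA1 and of the 13 tested nuclear genes of the cytochrome b6f list, ordered by fold change; each point is a library, red without and blue with added iron. MCA1 is higher without added iron, PETO1, PETN1, PETC1, PETM1 and PCY1 are lower, and the others were not called.

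The genes whose profile was most like that of MCA1 were 3 with a symbol and 2 without. Likeness was measured as the Pearson correlation of log2(FPKM + 1) over the 6 libraries, which is set mostly by the gap between the groups and has no p here. It exceeded 0.99 for 66 genes and 0.95 for 376. The 5 highest were CREG1A (DsB_g13618, 0.9997), DsB_g02807 (0.9997), TFN3 (DsB_g05825, 0.9996), FOX1 (DsB_g14819, 0.9995) and DsB_g02799 (0.9995). FOX1 encodes a multicopper oxidase, the kind of enzyme that oxidises iron for uptake in *Chlamydomonas*, and of the 5 it was closest to MCA1 in size of change, with a root-mean-square difference of 0.415 log2 units between the centred profiles.

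FOX1 had 1034, 1038 and 679 FPKM without added iron and 3.20, 3.67 and 4.56 FPKM with it. TFN3, a transferrin-domain gene, had 53.8, 59.3 and 40.9 FPKM without added iron and 0.0503, 0.0702 and 0.107 FPKM with it. DsB_g02807, which has no symbol or domain in the annotation, had 461, 455 and 270 FPKM without added iron and 0.739, 0.748 and 0.804 FPKM with it. In each of the 5 genes the groups stood far apart and replicate 3 was the lowest of the libraries without added iron, as in MCA1. They were picked by correlation over these same 6 libraries, so this likeness follows largely from the choice. Among the PPR genes the highest correlation was that of PPR8 (DsB_g13384), at 0.943, with 3.11, 3.15 and 2.94 FPKM without added iron and 2.54, 2.16 and 2.43 FPKM with it (log2 difference 0.27, limma adjusted p = 0.149). The next were PPR7 at 0.487, PPR3 at 0.169, TCB1 at -0.069 and DsB_g02162 at -0.074.

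**Figure D4:**
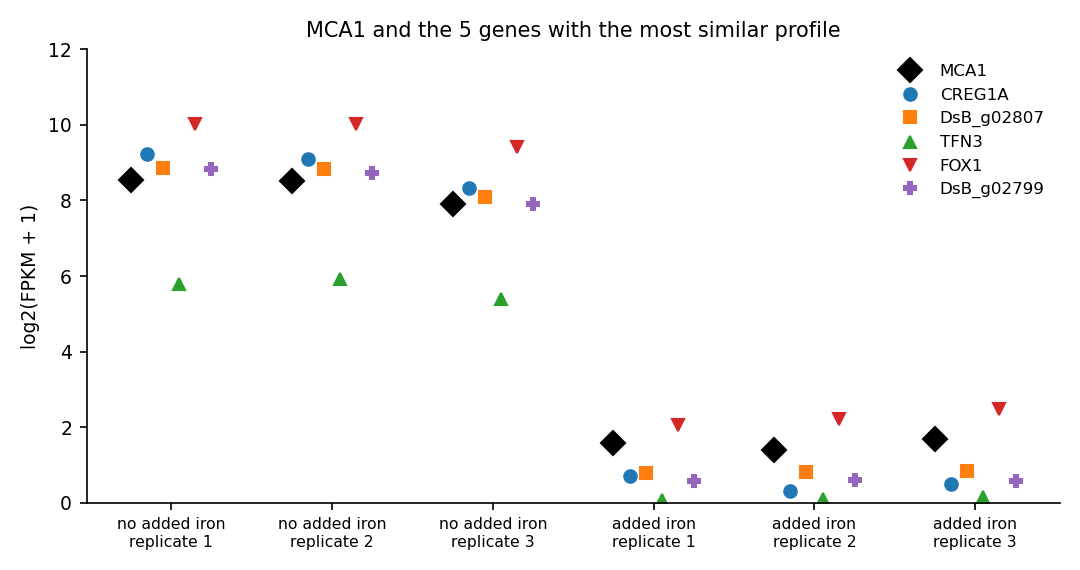
Log2(FPKM + 1) in each of the 6 libraries for MCA1 (black diamonds) and the 5 genes with the highest correlation with it. All 6 genes are high in the 3 libraries without added iron, lowest of these in replicate 3, and low in the 3 libraries with added iron.

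The genes next to MCA1 had far smaller differences. The nearest model, DsB_g11708, starts 415 nt from the start of MCA1 on the opposite strand (chromosome 6, 12828914 to 12844666), so the pair lies head to head. It has no symbol or domain, and it had 8.65, 8.15 and 7.70 FPKM without added iron and 6.88, 6.59 and 6.95 FPKM with it. These groups did not overlap, but the log2 difference of 0.23 (SE 0.0763) did not pass the threshold (limma adjusted p = 0.103). With rescaled columns it was 0.41 and passed (limma adjusted p = 0.00778).

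On the other side the nearest model was DsB_g11706, 10420 nt away and listed at 0 in every library. Of the 10 nearest models, 5 on each side, 7 were tested. By limma 1 of the 7 was called, beside 9.39% of all genes tested, a count too small to set the neighbours apart from other genes. It was PRK1 (DsB_g11703), phosphoribulokinase of the Calvin cycle, which was lower without added iron, with 1055, 931 and 990 FPKM there and 1543, 1459 and 1756 FPKM with it (log2 difference -0.67, limma adjusted p = 0.00674). Without replicate 2 of added iron DsB_g25370, which has no symbol, was called as well (log2 difference -1.02, limma adjusted p = 0.0148). The log2 differences of the 7 ran from -0.67 to 0.23. No model overlapped MCA1, and the sources used here do not say whether reads were counted by strand.

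**Figure D5:**
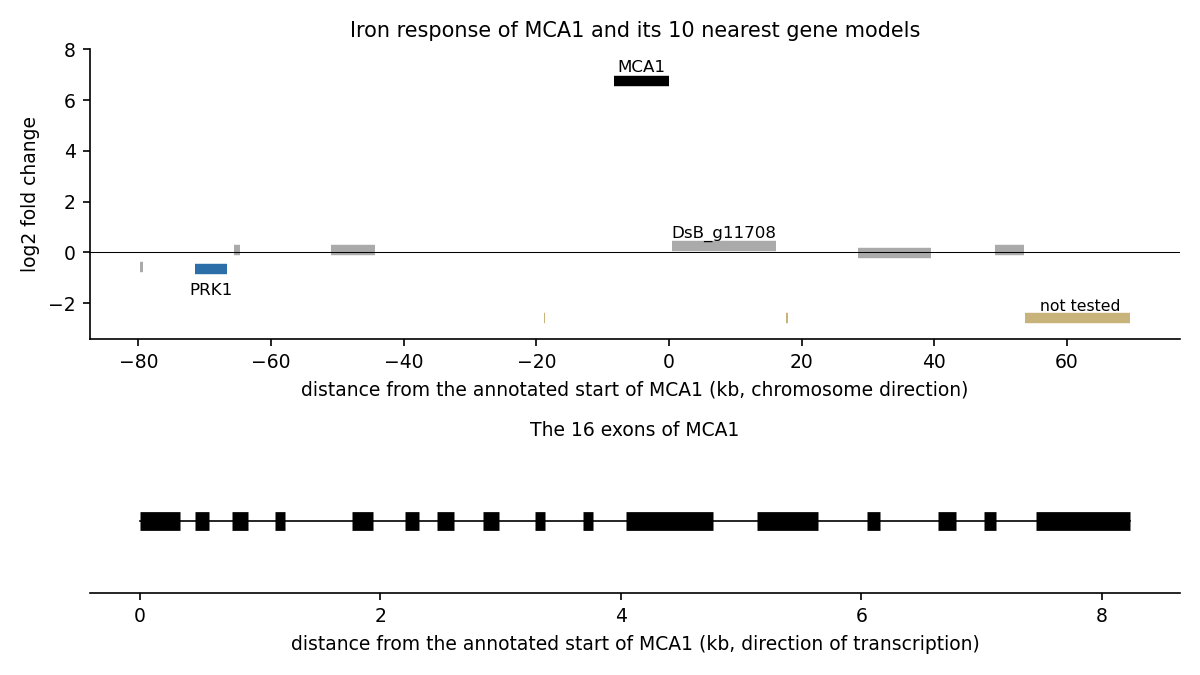
Above, log2 fold change of MCA1 and its 10 nearest gene models against distance from the annotated start of MCA1 in kb; bar length is the gene span, blue marks a called gene and models that were not tested are placed at the bottom. Below, the 16 exons of MCA1 as blocks; MCA1 stands at 6.76 and its tested neighbours lie between -0.67 and 0.23.

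The libraries carried the marker transcripts of photosynthetic vegetative cells. Of 37 models for Rubisco small subunit, antenna, photosystem, tubulin and intraflagellar transport genes, 35 were tested, with 10 lower and 0 higher without added iron by limma, beside 5.20% lower and 4.19% higher among all genes tested. The 10 lower genes were all of the tested Rubisco small subunit, antenna and photosystem genes. No tubulin or intraflagellar transport gene was called. The untested models, PSBO1A and PSBO1B, stayed under 1 FPKM. Lower transcripts were therefore not particular to the cytochrome b6f genes. At an unadjusted p under 0.05 there were 11 of the 35, beside 3473 of all 13909. Of the gamete genes, HAP2 was listed at 0 in every library and GEX1 stayed under 1 FPKM.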

How the data were processed

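Poly(A) RNA of 6 flasks, 3 without and 3 with added iron, was analysed. Nothing says whether the flasks came from separate precultures, so p-values measure only the spread between flasks. Per the submitters' processing notes, the tools were STAR 2.4.0j and Cuffdiff 2.0.2. The deposited FPKM values were made by the authors, per the series' design text, on their own assembly. No genome sequence was used here. All 6 columns were used. Coordinates are those of the deposited annotation.

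Genes whose FPKM averaged 1 or more were tested with limma 3.58.1 in R 4.3.3, on log2(FPKM + 1), with group as the only term, a mean-variance trend, two-sided p and Benjamini-Hochberg adjustment over all genes tested, at 0.05. FPKM values are not counts, and whole reads were not recovered, so no count model was run. MCA1 was fitted with all genes, but its p is not given. The fit and the step search were tested on simulated data. Python 3.11.15 with pandas 2.3.3 and matplotlib 3.10.9 was used.

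MCA1 and the lists were chosen with earlier results of these data known. Named were MCA1, petA, members of the factor and cytochrome b6f lists, the gene on each side and any called neighbour, and the 5 genes of all and the 5 PPR genes most correlated with MCA1. PPR6, DsB_g25370, the OPR genes and the other plastome genes were named after their values were seen.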

Additional observations from a re-analysis of the deposited data

How the results depend on the processing

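MCA1 stayed higher without added iron in each of the 14 alternatives run, with a log2 difference of 7.29 with a pseudocount of 0.1 and 7.17 with columns rescaled to a sum of 1000000. The count of genes called, 1306 as reported, was 3736 with rescaled columns (85.3% higher, against 44.6%), 2148 with quantile normalization and 586 to 1784 without 1 library. With the replicate number as a block it was 813. Deviations of same-numbered libraries from their group means correlated at 0.02, 0.08 and -0.13. The highest value was 0.137, for replicate 1 without and replicate 3 with added iron. Nothing says whether same-numbered flasks were paired, and these correlations cannot exclude it. Among named genes the block removed the calls of RAA12 and OPR9 and gave one for petD (adjusted p = 0.0463). Named chloroplast RNA factors called, 2 as reported, were 8 with rescaled columns, 7 with quantile normalization, 1 with the replicate block and 1 to 4 without 1 library. RB47 was at -0.13 and not called on the deposited scale (limma adjusted p = 0.427). With quantile normalization it was at 0.24 and called (limma adjusted p = 0.0207). Other PPR genes called, 0 as reported, were 1 with rescaled columns (PPR8) and 0 to 2 without 1 library. With only replicates 1 and 2 kept, 1 was called (PPR7), beside 1668 of all 13909 genes tested. Chromosome neighbours called, 1 as reported, were 5 with rescaled columns and 1 to 2 without 1 library. The count of cytochrome b6f genes called stayed within 1.5 times of 5 throughout. The causes were not tested. Read depth was estimated only, and no counting interval is given.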
